A study of Mus musculus with 2 samples.

Results

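The genes described here encode the eukaryotic translation initiation factors, taken as every row of the raw UMI count table whose symbol begins with Eif and a digit between 1 and 6. There were 53 such genes among the 14959 in the table, and 44 of them had at least 20 CPM (UMIs of the gene per 1000000 UMIs of the group) in B16F10 or in B16F0. The other 9 stayed below that level in both lines and are given by level alone. Expression was measured in single mouse melanoma cells captured in droplets, where the 3′ end of a transcript receives a unique molecular identifier (UMI) so that molecules rather than reads are counted. The labels describe B16F10 as a subclone of B16 melanoma with high metastatic capacity and B16F0 as the parental line. Neither line carried a labelled treatment or engineered allele, and each was represented by 1 library, so no difference has a replicate check and the line cannot be told apart from its library. Cells within a line are further described by the authors' deposited classes: cycling or non-cycling, a cluster from C1 to C5, and Kdm5b high or low.

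Translation initiation places a ribosome with its initiator methionyl-tRNA at the start codon of a messenger RNA. The factor eIF2 delivers the tRNA as a GTP-bound ternary complex and is recharged by eIF2B, eIF4F binds the cap and unwinds the leader, and the large eIF3 complex bridges the messenger RNA to the small ribosomal subunit. eIF1 and eIF1A hold that subunit open while it scans, eIF5 triggers GTP hydrolysis at the start codon, and eIF5B joins the large subunit. Tumour cells adjust initiation mainly through cap binding, which mTORC1 controls via the 4E-BP proteins, and through phosphorylation of eIF2 alpha in the integrated stress response.

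The promoters of 4 members that differed between the lines are shown first, because members of eIF4F and eIF3 lay on opposite sides of the comparison. RefSeq promoter entries of build GRCm38.p6 matched 43 of the 53 members, and each sequence below is the 250 bases before the RefSeq transcription start, read 5′ to 3′ on the strand of the gene. All 4 genes lie on the plus strand, at chr16:20672477-20672726 for Eif4g1, chr4:137993205-137993454 for Eif4g3, chr3:138525941-138526190 for Eif4e and chr15:79074973-79075222 for Eif3l. Capitals mark a match to 1 of 3 motifs searched on both strands: CACGTG, the E-box bound by MYC and related factors, CCGGAAG, an ETS core, and the palindromic NRF1 element.
Eif4g1: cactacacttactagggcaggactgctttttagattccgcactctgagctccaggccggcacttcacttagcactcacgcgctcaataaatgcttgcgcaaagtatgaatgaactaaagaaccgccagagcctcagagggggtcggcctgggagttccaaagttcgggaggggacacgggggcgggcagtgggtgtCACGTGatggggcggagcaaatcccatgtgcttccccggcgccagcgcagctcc
Eif4g3: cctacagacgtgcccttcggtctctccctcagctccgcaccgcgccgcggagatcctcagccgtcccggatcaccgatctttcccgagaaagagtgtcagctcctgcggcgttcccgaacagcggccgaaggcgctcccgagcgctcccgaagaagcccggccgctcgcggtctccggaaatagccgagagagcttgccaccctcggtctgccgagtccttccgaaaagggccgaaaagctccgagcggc
Eif4e: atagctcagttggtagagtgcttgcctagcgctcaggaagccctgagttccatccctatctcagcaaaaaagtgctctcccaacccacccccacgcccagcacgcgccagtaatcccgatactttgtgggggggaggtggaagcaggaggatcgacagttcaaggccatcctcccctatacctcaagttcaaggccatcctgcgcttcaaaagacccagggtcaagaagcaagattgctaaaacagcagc
Eif3l: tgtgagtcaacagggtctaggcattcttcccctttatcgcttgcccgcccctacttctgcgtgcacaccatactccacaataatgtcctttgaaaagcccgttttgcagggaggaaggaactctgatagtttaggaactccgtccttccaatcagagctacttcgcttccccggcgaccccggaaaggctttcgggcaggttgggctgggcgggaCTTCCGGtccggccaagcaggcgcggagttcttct
Eif4g1 held CACGTG 54 bases before the RefSeq start used, and Eif3l held the ETS core on the opposite strand 35 bases before its start. The windows of Eif4g1 and Eif4g3 lie inside the genes as annotated in GENCODE M21, which begin at 20668313 and 137993022. They therefore precede a start downstream of the first annotated one. The windows of Eif4g3 and Eif4e held none of the 3 motifs. Over the matched members, CACGTG was present in 7 of 43 promoters (16.3%), against 6.05% of all 27025 promoters and 9.69% of 4231 promoters of protein-coding genes with at least 20 CPM in either line. The ETS core was present in 10 of 43 (23.3%), against 7.05% of all promoters and 17.4% of the expressed ones, and the NRF1 element in 1 of 43 (2.33%), against 0.781% and 1.99%. Different motifs of this set could share at most 1 end base, and a match describes letters in the window and not a bound site.

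Initiation factor transcripts made up a median of 1.32% of the UMIs of a B16F10 cell (quartiles 1.21% and 1.44%) and 1.44% of those of a B16F0 cell (quartiles 1.33% and 1.56%). The 53 genes summed to 13248 CPM in B16F10 and 14478 CPM in B16F0, a log2 ratio of -0.13. Eif1 alone had 2887 CPM in B16F10 and 3889 CPM in B16F0, which is most of the difference between the sums. Sequencing depth was 56748682 UMIs over 1574 B16F10 cells (median 34950.5 per cell) and 94268486 UMIs over 2582 B16F0 cells (median 35503.5). Of all UMIs, 6.78% in B16F10 and 5.41% in B16F0 came from the mitochondrial genome, 25.6% and 27.7% from ribosomal protein genes, and cycling cells were 78.1% and 54.6% of the cells. All 10 melanocyte markers looked for were in the table and summed to 8543 CPM in B16F10 and 8542 CPM in B16F0. Of 10 markers each, 6 fibroblast genes summed to 9.71 and 6.60 CPM, 3 macrophage genes to 3.93 and 6.43 CPM, and 4 endothelial genes to 65.2 and 66.8 CPM, mostly Egfl7, while the T and NK cell and keratinocyte lists had 0 genes in the table. The libraries shared 6 barcode sequences.

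Between the lines, 4 of the 44 members with at least 20 CPM were at least 1.5-fold higher in B16F10 than in B16F0 and 3 were at least 1.5-fold lower. All 4 members higher by that rule encode parts or relatives of the cap-binding complex eIF4F, and all 3 lower by it encode eIF3 subunits. These shares, 9.09% and 6.82%, lay near the background of all 5296 genes with at least 20 CPM, of which 10.6% were higher and 6.12% lower, so the counts are not a result about initiation factors as a family. The median log2 ratio of the members was 0.02, against 0.12 over all genes. Every interval given covers counting error only. A 3′ UMI counts a transcript once whatever its length, and levels are compared between groups for the same gene.

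Among the cap-binding genes, Eif4e, which encodes the protein that grips the cap itself, stood at 161 CPM in B16F10 (95% Poisson interval 157 to 164) and 105 CPM in B16F0 (103 to 107). The log2 ratio was 0.61, with an exact conditional interval of 0.57 to 0.66. Its homologue Eif4e2, whose protein binds the cap in repressor complexes, had 133 CPM in B16F10 and 93.4 CPM in B16F0, a log2 ratio of 0.50 that stayed under the 1.5-fold rule. Eif4e3 had 33.1 CPM in B16F10 and 32.7 CPM in B16F0. Of the 3 cap-binding proteins' genes, Eif4e was past the rule, Eif4e2 was higher by less, and Eif4e3 was at about the same level in both lines.

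The eIF4G scaffolds, which join the cap-binding protein to the helicase and to eIF3, were higher in B16F10 for all 3 genes of the group. Eif4g1, the main scaffold, had 141 CPM in B16F10 and 93.7 CPM in B16F0, a log2 ratio of 0.59 (0.54 to 0.63), close to the 1.5-fold limit. Eif4g3 had 46.0 CPM in B16F10 and 27.9 CPM in B16F0, a log2 ratio of 0.72 (0.64 to 0.80). Eif4g2, also known as DAP5, encodes a scaffold without the eIF4E-binding site that serves cap-independent and non-canonical initiation. It had 523 CPM in B16F10 and 309 CPM in B16F0, and its log2 ratio of 0.76 (0.74 to 0.78) was the highest of the 44 members, at percentile 95.3 of all genes.

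The helicase genes of the same complex did not share that difference. Eif4a1, the main RNA helicase of eIF4F, had 395 CPM in B16F10 and 440 CPM in B16F0, a log2 ratio of -0.15, and its paralogue Eif4a2 stood at 111 and 109 CPM, with a log2 ratio of 0.02. The helicase cofactor genes Eif4b and Eif4h had log2 ratios of -0.07 and 0.24, with Eif4h at 205 CPM in B16F10 and 173 CPM in B16F0. Eif4a3, which encodes the helicase of the exon junction complex and not an initiation helicase, had 41.9 and 40.2 CPM. Summed over the 8 genes listed under eIF4F, the level was 1542 CPM in B16F10 and 1211 CPM in B16F0, a log2 ratio of 0.35. Of the 8 genes, 7 lay above 0, where 61.4% of all genes lay. Eif4g2, whose protein lacks the eIF4E-binding site, differed most in CPM among them, with 523 CPM in B16F10 and 309 CPM in B16F0.

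Eif4ebp1 encodes 4E-BP1, the repressor that sequesters eIF4E until mTORC1 phosphorylates it. It had 965 CPM in B16F10 and 1013 CPM in B16F0, a log2 ratio of -0.07. Eif4ebp2, its paralogue, had 90.03 CPM in B16F10 and 68.3 CPM in B16F0, a log2 ratio of 0.40, and Eif4enif1, the eIF4E transport protein gene, had 35.0 and 28.9 CPM (0.28). Summed, these eIF4E partners stood at 1090 CPM in B16F10 and 1110 CPM in B16F0. The summed level of the genes listed under eIF4F, Eif4g2 among them, was higher in B16F10. Eif4ebp3 had no row under that symbol in the count table.

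**Figure D1:**
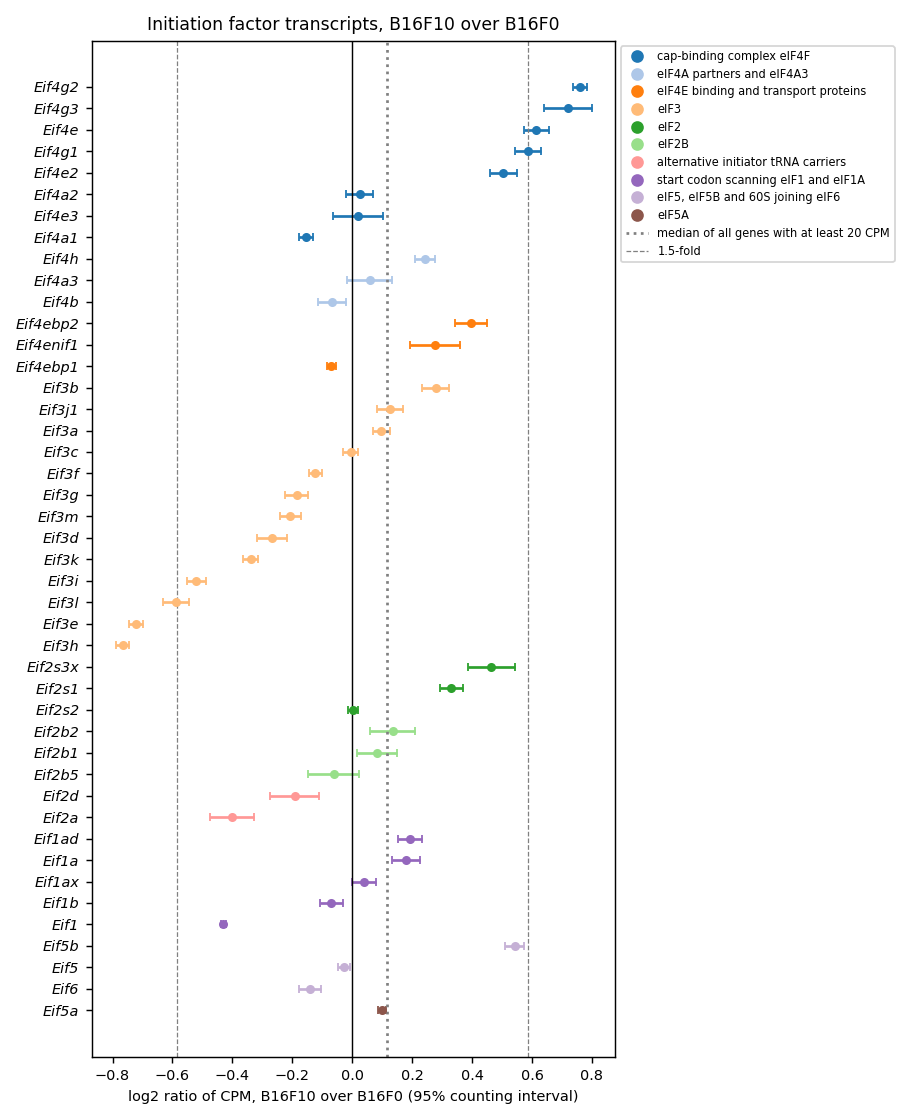
Log2 ratio of CPM, B16F10 over B16F0, for the 44 initiation factor genes with at least 20 CPM, grouped and coloured by complex, with 95% counting intervals as bars. The dashed lines mark 1.5-fold and the dotted line the all-gene median of 0.12: Eif4g2, Eif4g3, Eif4e and Eif4g1 lie past the right line, and Eif3l, Eif3e and Eif3h past the left one.

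The eIF3 subunits lay mostly on the other side, with 10 of 13 measured subunits below 0, where 38.6% of all genes lay, and a median log2 ratio of -0.21 against 0.12 for all genes. Eif3h had 380 CPM in B16F10 (375 to 385) and 646 CPM in B16F0 (641 to 652), and its log2 ratio of -0.77 (-0.79 to -0.74) was the lowest of the 44 members. Eif3e had 324 CPM in B16F10 and 534 CPM in B16F0, a log2 ratio of -0.72 (-0.75 to -0.70). Eif3l had 107 CPM in B16F10 and 161 CPM in B16F0, a log2 ratio of -0.59 (-0.63 to -0.55), at the edge of the rule. The subunits e, h and l are all absent from the smaller eIF3 of budding yeast.

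Of the subunits with a budding yeast counterpart, a, b, c, g and i lay on both sides. Eif3a, which encodes the largest scaffold subunit, had 306 CPM in B16F10 and 286 CPM in B16F0, a log2 ratio of 0.10, and Eif3b had 119 and 98.3 CPM, a log2 ratio of 0.28. Eif3c had 377 CPM in B16F10 and 378 CPM in B16F0. Eif3i and Eif3g, whose proteins attach to Eif3b, had log2 ratios of -0.52 and -0.19, and Eif3i stood at 207 CPM in B16F10 and 297 CPM in B16F0. Of the other subunits without a budding yeast counterpart, Eif3k was at -0.34, Eif3d at -0.27, Eif3m at -0.21 and Eif3f at -0.12. The 14 eIF3 genes summed to 3177 CPM in B16F10 and 3944 CPM in B16F0, a log2 ratio of -0.31. Eif3j1 had a log2 ratio of 0.13, and its near copy Eif3j2 had 2.996 CPM in B16F10 and 3.54 CPM in B16F0, and UMIs of such copies may be divided uncertainly between them. Eif3d, Eif3m and Eif3j1 overlap another counted gene on the opposite strand. So do Eif1b, Eif2a, Eif2d, Eif2b4, Eif2ak1, Eif2ak2, Eif4a2, Eif4enif1 and Eif6, while Eif4e3 overlaps Gm20696 on its own strand. Eif4g3, Eif2s2 and Eif2ak3 overlap an opposite-strand gene that has no row in the count table. The levels of all these members are uncertain to that extent.

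Start codon selection was represented by Eif1, with 2887 CPM in B16F10 (2873 to 2901) and 3889 CPM in B16F0 (3876 to 3901), a log2 ratio of -0.43. The difference was under the 1.5-fold rule. Its paralogue Eif1b had a log2 ratio of -0.07, and the eIF1A genes Eif1a and Eif1ax, near copies of each other, had 0.18 and 0.04. Eif1ad, which encodes an eIF1A-like protein, had 145 CPM in B16F10 and 127 CPM in B16F0, and it overlaps Banf1 on the opposite strand.

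The eIF2 subunit genes had log2 ratios between 0.00 and 0.46. Eif2s1, the alpha subunit that stress kinases phosphorylate, had 181 CPM in B16F10 and 144 CPM in B16F0, a log2 ratio of 0.33. Eif2s2, the beta subunit, had 845 and 844 CPM, and Eif2s3x, the X-linked gamma subunit, had 42.2 and 30.6 CPM, a log2 ratio of 0.46. Eif2s3y had no row under that symbol in the count table. Of the exchange factor eIF2B, Eif2b5, its catalytic epsilon subunit, had 30.8 CPM in B16F10 and 32.2 CPM in B16F0, and Eif2b1, the regulatory alpha subunit, had 51.5 and 48.6 CPM. Eif2b2 had 41.2 and 37.5 CPM, while Eif2b3 with 12.5 and 17.0 CPM and Eif2b4 with 18.0 and 15.5 CPM stayed under 20 CPM.

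The kinases of eIF2 alpha were all under 20 CPM. Eif2ak3, the endoplasmic reticulum stress kinase PERK, had 6.84 CPM in B16F10 and 8.48 CPM in B16F0. Eif2ak4, the amino acid sensor GCN2, had 10.2 and 10.8 CPM. Eif2ak1, the haem-regulated kinase, had 12.2 and 11.03 CPM, and Eif2ak2, the double-stranded RNA sensor PKR, had 17.5 and 15.2 CPM. Their sum was 46.8 CPM in B16F10 and 45.5 CPM in B16F0. Eif2a and Eif2d, whose proteins can carry initiator tRNA outside eIF2, summed to 71.5 CPM in B16F10 and 88.7 CPM in B16F0, with Eif2a at 39.2 and 51.7 CPM, a log2 ratio of -0.40.

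Of the late factors, Eif5b, whose GTPase joins the ribosomal subunits, had 248 CPM in B16F10 and 170 CPM in B16F0, a log2 ratio of 0.54 (0.51 to 0.57). Eif5, the GTPase-activating protein gene of eIF2, had 566 and 577 CPM, and Eif6, which encodes a protein that keeps free large subunits apart, had 173 and 191 CPM. Eif5a, whose hypusine-bearing product relieves stalled ribosomes, had 1312 CPM in B16F10 and 1225 CPM in B16F0, a log2 ratio of 0.10. Its paralogue Eif5a2 had 4.41 and 5.12 CPM. Eif2c5, with 12.3 and 12.7 CPM, is annotated as a long non-coding RNA and meets the rule by its name only. Among these 6 genes, Eif5b stood apart from 0 by the most, and it overlaps Rev1 on the opposite strand.

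Scaling bears on some of these calls, because all genes had a median of 0.12. With TMM factors the all-gene median became 0.01, Eif4e and Eif4g1 came inside the 1.5-fold limit, and Eif3i passed it on the lower side. DESeq2 size factors gave the same losses and gain. Eif4g2, Eif4g3, Eif3e, Eif3h and Eif3l passed the rule under both. With a 2-fold limit 0 members were called on either side (background 1.53% higher and 1.6% lower), and with a limit of 25% more in the higher line 9 were higher (background 28.5%) and 7 lower (background 15.4%).

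The lines were also compared within the same cycling class, since B16F10 held more cycling cells. Within cycling cells (1230 of B16F10 and 1411 of B16F0) 5 members passed the 1.5-fold rule as higher in B16F10 (background 8.07%) and 2 as lower (background 5.99%). The higher ones were Eif4g2, Eif4g3, Eif4e, Eif4g1 and Eif5b, the last with 245 CPM in B16F10 and 160 CPM in B16F0 (log2 ratio 0.61). The lower ones were Eif3h at -0.76 and Eif3e at -0.69. Within non-cycling cells (344 and 1171), 2 members were higher (background 10.2%), Eif4g3 at 0.84 and Eif4g2 at 0.80, and 1 was lower (background 7.32%), Eif3g at -0.59.

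In the non-cycling cells Eif3l, Eif3h and Eif3e had log2 ratios of -0.57, -0.56 and -0.54, just inside the rule, and Eif4e and Eif4g1 had 0.42 each. The same direction was thus present in both classes for the 7 genes called over all cells, with 5 of them under 1.5-fold in non-cycling cells. Eif3g differed most between the classes. Its level was 161 CPM in cycling B16F10 cells and 167 CPM in cycling B16F0 cells. In non-cycling cells it was 122 CPM in B16F10 and 184 CPM in B16F0, the former the lowest of these class levels. The cycling class of B16F10 was not uniform for Eif3g, which had 177 CPM in its mostly cycling cluster C5. Cluster C4 of B16F10, all in the cycling class, lay below the non-cycling cells, as given further on. The difference between the classes was not tested, and the median mitochondrial share in non-cycling cells was 7.73% in B16F10 and 5.39% in B16F0; its part in the result was not tested.

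**Figure D2:**
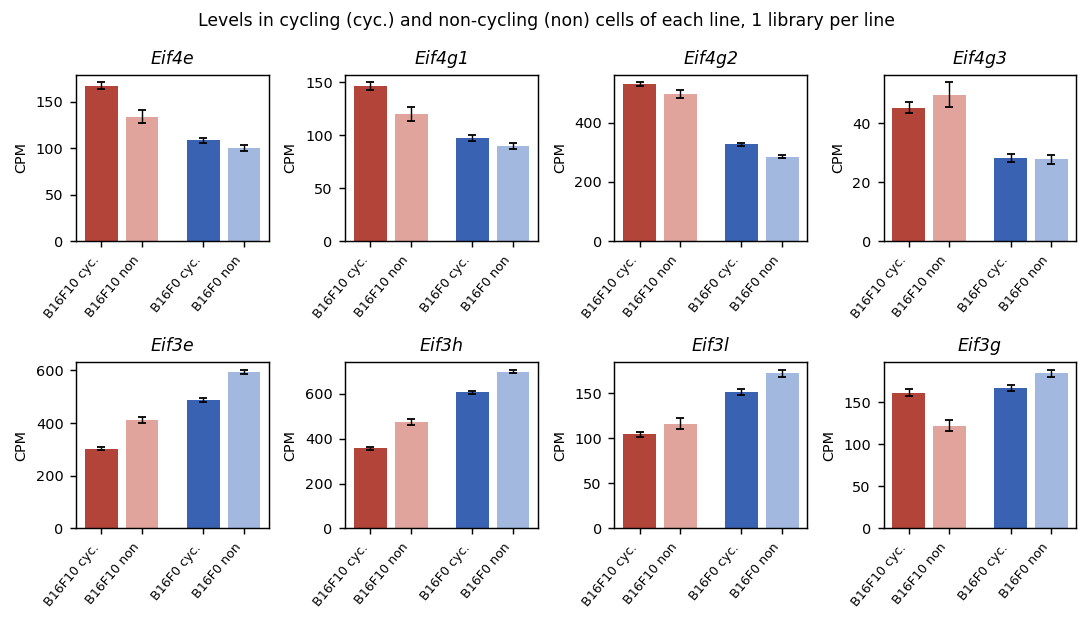
Level in CPM of Eif4e, the 3 Eif4g genes, Eif3e, Eif3h, Eif3l and Eif3g in cycling and non-cycling cells of B16F10 (red) and B16F0 (blue), with 95% Poisson intervals as bars and 1 library per line. For the upper genes both B16F10 classes stand above both B16F0 classes, and for Eif3e, Eif3h and Eif3l both stand below. Of the classes shown, Eif3g is lowest in non-cycling B16F10 cells at 122 CPM. Clusters within the cycling class are not shown.

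Each member was also set beside the genes around it on its chromosome. For 37 members with at least 10 expressed neighbours within 5 Mb in GENCODE M21 (GRCm38), the median log2 ratio of the neighbours was taken. It had a Pearson correlation of 0.40 and a Spearman correlation of 0.33 with the log2 ratio of the member. Of the 37 members, 22 lay on the same side of the median of all positioned genes (0.12) as their neighbours. These values are a description across genes that share chromosomes and libraries. Eif4e on chromosome 3 (138526179 to 138559696) had a log2 ratio of 0.61, and its 17 neighbours had a median of 0.54 (quartiles 0.28 and 0.73). Eif4e2 on chromosome 1 (87213914 to 87240488) had 0.50 against 0.47, and Eif5b on chromosome 1 (37998010 to 38055579) had 0.54 against 0.44. These 3 genes thus differed between the lines by about as much as the genes beside them. Other members beside raised neighbours did not. Eif5 had -0.03 against 0.53, Eif3c had -0.005 against 0.43 and Eif3f had -0.12 against 0.36.

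The eIF4G genes stood further from their surroundings. Eif4g2 on chromosome 7 (111067750 to 111083030) had 0.76 against a neighbour median of 0.37 (quartiles 0.19 and 0.66). Eif4g3 on chromosome 4 (137993022 to 138208508) had 0.72 against 0.22, and Eif4g1 on chromosome 16 (20668313 to 20692884) had 0.59 against 0.18. Each lay above the upper quartile of its neighbours.

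Of the lower members, Eif3l on chromosome 15 (79075179 to 79094405) had -0.59 against a neighbour median of 0.01 over 76 genes, with a lower quartile of -0.29. Eif3i on chromosome 4 (129591960 to 129600648) had -0.52 against 0.10. Eif3e (43250058 to 43282719) and Eif3h (51786558 to 51865523) also lie on chromosome 15, with 7 expressed neighbours each, whose medians were -0.24 and 0.19. Chromosome 15 as a whole had a median of 0.02 over 223 genes, below the 0.12 of all positioned genes. The 3 eIF3 genes called lower share this chromosome. All 5 measured members on it lay below 0, with Eif3d at -0.27 and Eif4b at -0.07. The part of the chromosome in these values was not tested.

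**Figure D3:**
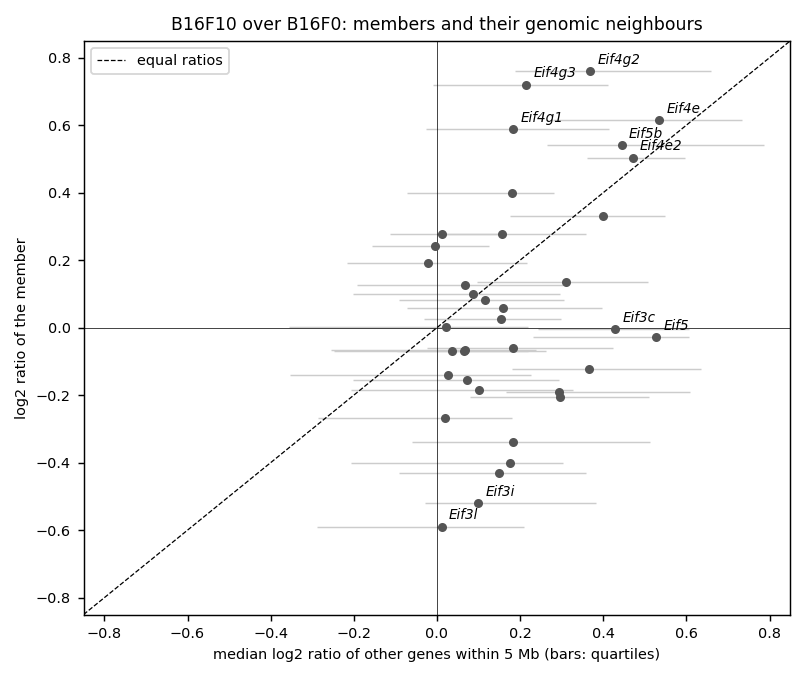
Log2 ratio B16F10 over B16F0 of each of 37 members (y axis) against the median log2 ratio of the other genes within 5 Mb (x axis, quartiles as grey bars), with the line of equal values dashed. Eif4e, Eif4e2 and Eif5b lie near the line, the Eif4g genes above it, and Eif3l, Eif3i and Eif5 far below it.

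Within each line, cycling cells were compared with non-cycling cells, a split that matched an S or G2/M score above 0 in all 4156 cells. In B16F10, 4 members were at least 1.5-fold higher in cycling cells (background 13%) and 0 were lower (background 3.43%). In B16F0, 1 member was higher (background 9.35%) and 0 were lower (background 1.03%). The shares of members past the rule, 9.09% and 2.27% on the higher side, were below those of all genes.

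Eif2s1 had 196 CPM in cycling and 122 CPM in non-cycling B16F10 cells (log2 ratio 0.68), and 152 and 134 CPM in the same classes of B16F0 (0.18). Eif5 had 608 and 398 CPM in cycling and non-cycling B16F10 cells (0.61) and 660 and 470 CPM in B16F0 (0.49). Eif4a3 had log2 ratios of 0.63 in B16F10 and 0.36 in B16F0, and Eif2b1 had 0.60 and 0.36. These 4 genes were higher in cycling cells of both lines, past the rule in B16F10 only, and the difference between the lines was not tested. With cells thinned to 1 depth, only Eif2s1 of the 4 passed the rule in B16F10. With totals that leave out mitochondrial and ribosomal protein genes, 0 of them did. Eif1ad had the reverse pattern of calls, with 153 and 114 CPM in cycling and non-cycling B16F10 cells (0.42) and 158 and 88.1 CPM in B16F0 (0.84).

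On the other side stood several eIF3 genes and the helicase paralogue Eif4a2. Eif4a2 had 103 CPM in cycling and 145 CPM in non-cycling B16F10 cells (log2 ratio -0.50), and 98.0 and 123 CPM in B16F0 (-0.33). Eif3e had log2 ratios of -0.44 in B16F10 and -0.29 in B16F0, Eif3f -0.41 and -0.30, and Eif3h -0.41 and -0.21. Of the 13 measured eIF3 subunits 8 were below 0 in B16F10, where 37.5% of all genes lay, and 9 in B16F0, where 41.5% did, and the summed eIF3 level was 3090 CPM in cycling and 3533 CPM in non-cycling B16F10 cells, and 3754 and 4189 CPM in B16F0. No member on this side passed 1.5-fold with the main scaling. Eif4a1, the other helicase gene, had 0.07 in B16F10 and -0.17 in B16F0.

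Eif4ebp2 came near the rule in B16F10, with 96.0 CPM in cycling and 65.7 CPM in non-cycling cells (0.55), and 76.1 and 58.4 CPM in B16F0 (0.38). Log2 ratios between the cycling classes were smaller for Eif2s2 (-0.06 in B16F10 and -0.02 in B16F0), Eif3a (0.04 and 0.06), Eif1 (0.14 and 0.16) and Eif4g2 (0.09 and 0.20). Eif4e had 0.32 and 0.12, Eif4g1 0.29 and 0.12, Eif4h 0.32 and 0.22, Eif5a 0.33 and 0.04, Eif6 0.48 and 0.15, Eif2b5 0.21 and 0.04, Eif5b -0.07 and -0.18, and Eif2a -0.15 and -0.25. Eif4ebp1 stood on opposite sides, at -0.27 in B16F10 and 0.13 in B16F0, a difference that was not tested. Cycling cells also differed in composition, with median ribosomal protein shares of 24.4% in cycling and 27.9% in non-cycling B16F10 cells and 26.3% and 28.7% in B16F0. When mitochondrial and ribosomal protein genes were left out of the total, 0 members were higher and 1, Eif4a2, was lower in cycling B16F10 cells. With a 2-fold limit 0 members were higher in cycling cells of B16F10 (background 5.36%) or of B16F0 (background 5.15%). With a limit of 25% more in the higher class, 12 members were higher (background 28.1%) and 5 lower (background 10.7%) in B16F10, and 6 were higher (background 19.7%) and 2 lower (background 5.94%) in B16F0.

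**Figure D4:**
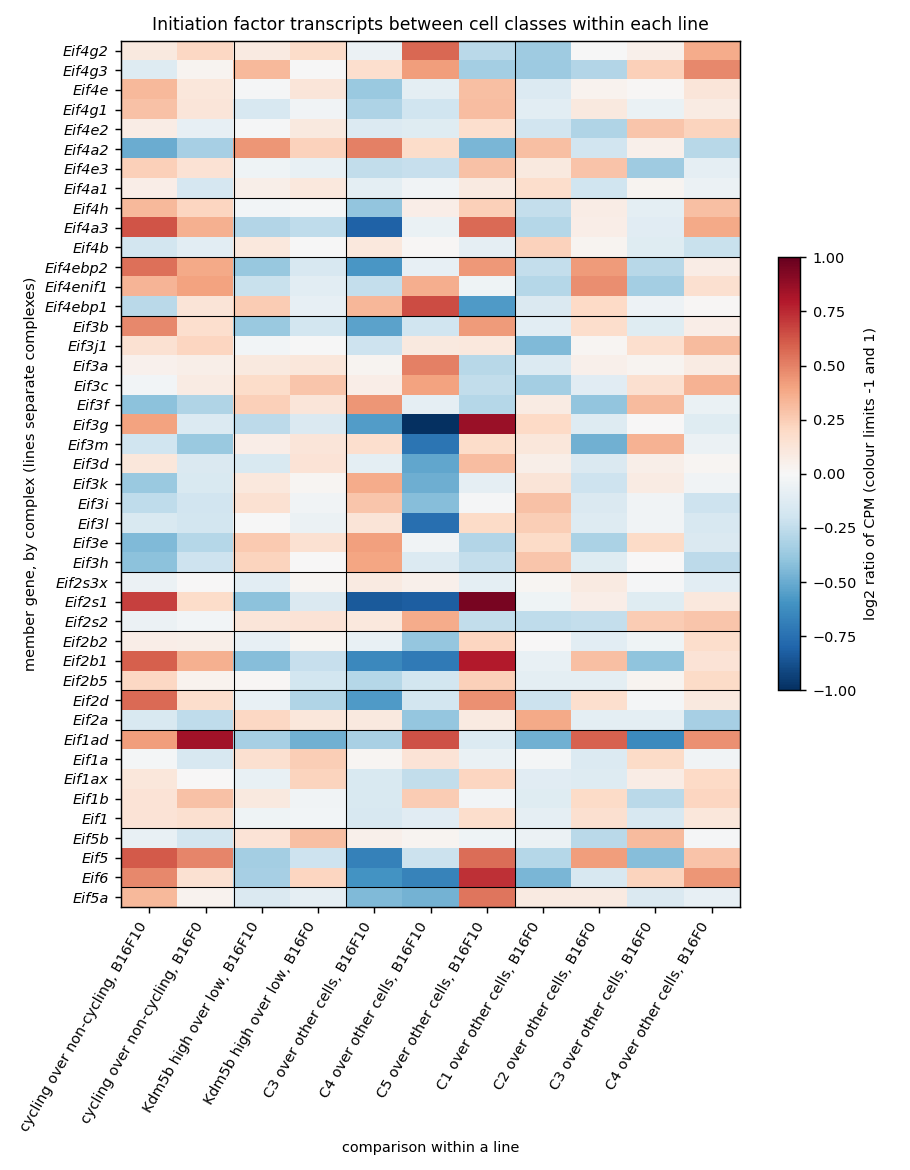
Log2 ratio of CPM between cell classes within a line for the 44 members with at least 20 CPM, by complex (rows) and comparison (columns), red where the first-named class is higher and blue where it is lower. The strongest colours lie in the B16F10 cluster columns, with Eif3g and Eif2s1 blue in C4 and red in C5, and Eif1ad is the deepest red of the B16F0 cycling column.

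The deposited clusters divide these same cells and may rest on these same genes, so each cluster against the other cells of its line is a description. Clusters with at least 50 cells were C3, C4 and C5 in B16F10 and C1, C2, C3 and C4 in B16F0. In B16F10, C3 with 306 cells, of which 8.50% were cycling, had 0 members higher (background 3.89%) and 5 lower (background 15.4%): Eif2s1 at -0.84, Eif4a3 at -0.81, Eif5 at -0.68, Eif2b1 at -0.64 and Eif6 at -0.60. C5 with 1045 cells, 94.4% of them cycling, had 4 higher (background 12%), namely Eif2s1 at 0.95, Eif3g at 0.87, Eif2b1 at 0.79 and Eif6 at 0.73, and 0 lower (background 5.41%).

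C4 of B16F10, with 212 cells that were all in the cycling class, had 2 members higher (background 10.3%) and 6 lower (background 9.87%) than the other B16F10 cells. Eif4ebp1 had 1426 CPM in C4 and 906 CPM in the other cells (log2 ratio 0.65, interval 0.62 to 0.69), and Eif1ad had 212 and 137 CPM (0.63). Eif3g had 77.2 CPM in C4 and 163 CPM in the other cells (-1.08), Eif2s1 had 107 and 191 CPM (-0.83), and Eif3l had 66.2 and 112 CPM (-0.76). Eif3m, Eif2b1 and Eif6 had log2 ratios of -0.73, -0.71 and -0.66. The members higher in this cluster thus encode an eIF4E repressor and an eIF1A-like protein, and those lower include 3 eIF3 subunits and subunits of eIF2 and eIF2B.

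Most listed genes of the integrated stress response, the programme switched on when eIF2 alpha is phosphorylated, were higher in the same cells. Of 18 with at least 20 CPM, 13 were at least 1.5-fold higher in C4 of B16F10 (background 10.3%), 0 were lower (background 9.87%) and 5 did not pass the rule, with a median log2 ratio of 0.82 against 0.04 for all genes. Ppp1r15a, which encodes the regulator that directs a phosphatase to eIF2 alpha, had 250.5 CPM in C4 and 60.3 CPM in the other cells (2.05). Ddit3, the transcription factor CHOP, had 248.9 and 97.1 CPM (1.36), and Atf4, the central transcription factor of the response, had 402 and 231 CPM (0.80). Eif4ebp1 is itself known in mouse as a target of ATF4, and whether that bears on its level in these cells was not tested. C4 of B16F10 had a median mitochondrial share of 8.58% and 29693 UMIs per cell, against 6.72% and 34950.5 over all B16F10 cells; their part in these values was not tested.

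C4 of B16F0, with 469 cells, of which 99.6% were cycling, had 0 members past the rule in either direction (background 7.68% higher and 1.6% lower). There Eif4ebp1 had 1018 CPM, a log2 ratio of 0.01 to the other B16F0 cells, Eif3g -0.12 and Eif2s1 0.10, and the stress list had 0 of 17 genes past the rule. Eif6 lay on opposite sides in the lines, at 114 CPM in C4 and 181 CPM in the other cells of B16F10 and 243 and 179 CPM in B16F0. In the remaining B16F0 clusters, C1 had 0 members past the rule (background 1.21% higher and 6.63% lower), C2 had Eif1ad higher at 0.59 (background 6.98%) and 0 lower (background 3.23%), and C3 had 0 higher (background 3.31%) and Eif1ad lower at -0.63 (background 7.06%). Whether clusters of 1 name hold like cells in both lines was not tested.

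Set against C4 of B16F0, C4 of B16F10 had 11 members at least 1.5-fold lower (25%, background 15.1%) and 3 higher (6.82%, background 17.4%), a comparison chosen after the values were seen. The lower members were 8 of the 13 measured eIF3 subunits, from Eif3l at -1.15 and Eif3g at -1.08 to Eif3e at -0.64, with Eif6 at -1.09, Eif2b1 at -0.67 and Eif1 at -0.62. The higher ones were Eif4g2 with 736 CPM in B16F10 and 378 CPM in B16F0 (0.96), Eif4g3 (0.71) and Eif2s3x (0.59). Eif3a, Eif3b and Eif3c were not among the lower subunits, at 0.47, 0.05 and 0.08. Within C3 of each line, 3 members were lower (background 9.83%), Eif6 at -0.82 with Eif3g and Eif2d at -0.66 each, and 2 were higher (background 8.39%), Eif4g3 and Eif4g2 at 0.68 each. Eif4g2 and Eif4g3 were thus past the rule in every cell class compared between the lines, that is cycling, non-cycling, C3 and C4. Median UMIs per cell in C4 were 29693 in B16F10 and 38645 in B16F0 and the median mitochondrial shares 8.58% and 4.87%; their part was not tested. Without the C4 cells of both lines, 6 members remained called between the lines over all other cells, and Eif3l came to -0.55.

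Kdm5b encodes a histone demethylase known as a mark of slow-cycling melanoma cells, and the authors classed 121 B16F10 and 111 B16F0 cells as Kdm5b high. No member passed 1.5-fold between Kdm5b high and low cells in B16F10 (background 1.83% higher and 4.26% lower) or in B16F0 (background 0.995% and 3.66%). Log2 ratios reached from -0.42 to 0.44 in B16F10 and from -0.48 to 0.30 in B16F0. By the mean over both lines Eif4a2 was at the upper end, with 147 CPM in Kdm5b high and 108 CPM in Kdm5b low B16F10 cells (0.44) and 127 and 108 CPM in B16F0 (0.23), and Eif5b had 0.14 and 0.30 and Eif3c 0.18 and 0.28. The lowest means over both lines were those of Eif1ad (-0.34 in B16F10 and -0.48 in B16F0), Eif2b1 (-0.42 and -0.23) and Eif2s1 (-0.41 and -0.15), and in B16F0 alone several members lay below Eif2s1, among them Eif4a3 at -0.25. With a limit of 25% more in the higher class, 2 members were higher (background 7.59%) and 7 lower (background 12.5%) in B16F10, and 1 was lower (background 9.41%) in B16F0.

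Eif4ebp1 had 0.25 in B16F10 and -0.08 in B16F0 between the Kdm5b classes, Eif4e -0.01 and 0.12, Eif5 -0.34 and -0.21, Eif6 -0.33 and 0.21, Eif5a -0.14 and -0.09, and Eif3a 0.10 and 0.11. Cycling cells were 36.4% of Kdm5b high and 81.6% of Kdm5b low B16F10 cells, and 18.0% and 56.3% in B16F0. Within non-cycling cells alone (77 high and 267 low in B16F10, 91 and 1080 in B16F0) no member passed the rule either, and the log2 ratios spanned -0.23 to 0.30 in B16F10 and -0.24 to 0.31 in B16F0. The background there was 1.1% higher and 0.492% lower in B16F10, and 0.62% and 0.372% in B16F0. With counts this few a gene at 30 CPM has a wide interval, as for Eif2b5 at 27.2 and 32.0 CPM in non-cycling B16F0 cells (-0.24, -0.59 to 0.09).

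Spread over cells was taken after each cell was thinned to 19718 UMIs, as the Fano factor, the variance over the mean. The median Fano factor of all genes with a mean of at least 0.1 UMI was 1.10 in B16F10 and 1.09 in B16F0. The median mean of those genes was 0.50 and 0.46 UMI, far below the means of abundant members such as Eif1, Eif5a and Eif4ebp1. No allowance was made for the mean, so a value above the all-gene median is not by itself unusual spread. Eif4ebp1 had 5.02 in B16F10 and 2.70 in B16F0 at thinned means of 19.6 and 20.03 UMIs, so its spread differed between the lines at about the same mean. Eif1 had 5.73 and 6.19, Eif5a 3.40 and 2.89, Eif2s1 1.99 and 1.56, and Eif3g 1.84 and 1.46. In B16F10 the cluster levels of Eif4ebp1 were 1163 CPM in C3, 1426 CPM in C4 and 844 CPM in C5, and in B16F0 they were 945 CPM in C1, 1124 CPM in C2, 985 CPM in C3 and 1018 CPM in C4. The low members Eif2s3x and Eif4e3 had 1.002 and 1.02 in B16F10 and 1.09 and 1.08 in B16F0, near the value that counting alone gives.

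Other genes of the pathway give the setting. Of 22 related initiation genes with at least 20 CPM, 1 was at least 1.5-fold higher in B16F10 and 1 lower, with a median of 0.18, beside the background of 10.6% higher and 6.12% lower that holds for each list compared between the lines. Mknk2, whose kinase phosphorylates eIF4E, had 39.1 CPM in B16F10 and 24.7 CPM in B16F0 (0.67), and Pdcd4, whose protein blocks the eIF4A helicase, had 11.3 and 30.8 CPM (-1.45). Pdcd4 also stood at 7.48 CPM in cycling and 26.7 CPM in non-cycling B16F10 cells (-1.84), and 20.9 and 43.5 CPM in B16F0 (-1.06). Of 12 elongation and termination factor genes, 0 were higher and 1 was lower, Eef1e1 at -0.67, whose product despite its name sits in the multi-tRNA synthetase complex, and Eef1a1, the main elongation factor, had 5273 CPM in B16F10 and 7831 CPM in B16F0 (-0.57). The list median was -0.19.

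Of 9 mTORC1 and MYC regulators with at least 20 CPM, Deptor, an mTOR inhibitor, was higher at 78.5 CPM in B16F10 and 37.4 CPM in B16F0 (1.07), and Mxd4, which encodes a MAX partner that opposes MYC, was lower at 22.5 and 63.7 CPM (-1.50). Of 18 integrated stress response genes, 2 were higher (background 10.6%) and 5 lower (background 6.12%), among them Slc7a11, the cystine transporter gene, with 60.9 CPM in B16F10 and 248 CPM in B16F0 (-2.02), and Asns, asparagine synthetase, with 96.0 and 236 CPM (-1.30). Median log2 ratios were 0.24 for the mTORC1 and MYC list and -0.07 for the stress list, against 0.12 for all genes. These lists were chosen with earlier results of these data known, and their counts describe these libraries only.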

How the data were processed

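Per the labels' protocols, the submitters prepared 10x Chromium 3′ libraries of chemistry v2, 1 per line. Per the submitters' processing notes, which state no roles, Cell Ranger 3.0.0, Seurat 3.0 and mm10 were used. The authors deposited a matrix of raw UMI counts (14959 genes, 4156 cells) and, per the file headers, a table of classes with an S and a G2/M score for each cell. The sources used here do not give how classes, scores and cell filters were made, or whether counting used strand.

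Counts were summed over the cells of a group and divided by the group total to CPM. CPM carries an exact 95% Poisson interval and the log2 ratio an exact conditional binomial interval. No test was made, because cells of 1 library do not replicate a line. A gene was called where the groups differed by 1.5-fold or more and the larger level was 20 CPM or more. A count of 0 allows up to 3 counts, or 0.0529 CPM in B16F10 and 0.0318 CPM in B16F0. All deposited cells were kept and no doublet caller was run. Cells were thinned without replacement to 19718 UMIs, leaving out 72 B16F10 and 259 B16F0 cells. The named genes are every called member, the 3 at either end of each comparison, the most abundant of each complex and a fixed list, and others were named after their values were seen to complete a complex. Members and lists were chosen with earlier results of these data known. Some alternatives, namely the clusters C3 and C4 alone, cells without C4, Kdm5b classes in non-cycling cells and the 5 Mb neighbours, were added after seeing the data. Protein sequences were not used here.

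Scaling factors came from edgeR 4.0.16 (TMM) and DESeq2 1.42.0 (size factors) in R 4.3.3, and all else was computed in Python 3.11.15 with pandas 2.3.3, scipy 1.17.1, numpy 2.4.6 and matplotlib 3.10.9. The ratio step was tested on simulated counts.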

Additional observations from a re-analysis of the deposited data

Results flagged for a closer look

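Eif6, which encodes a protein that keeps free large ribosomal subunits apart, lay on opposite sides in the cluster C4 of each line. Its log2 ratio of C4 over the other cells was -0.66 in B16F10 and 0.44 in B16F0. Each line is 1 library, and the difference between these values was not tested. C4 of B16F10 had a median mitochondrial share of 8.58%, and C4 of B16F0 had 4.87%; the part of this in the result was not tested.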

How the results depend on the processing

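Of 156 counts and medians recomputed, 129 stayed and 27 moved. A count above 0 stayed if it was within 1.5 times the value given, and a count of 0 stayed only if it was again 0. The Kdm5b counts and the lower counts between cycling classes were 0 with the main setting. They make up many of the values that stayed. A stricter limit, such as the 2-fold rule, could not move them, so the tally is no measure of how stable the calls are. A median stayed if it was within an interval set by the ranked values of the members, which measures spread between genes and not counting error. Of 1157 values of named genes 876 stayed within their counting intervals, and 0 called values changed sign. Between the lines, 2 members were higher and the median was -0.076 with TMM factors and likewise 2 and -0.081 with DESeq2 size factors; a 2-fold rule called 0 higher and 0 lower, and a rule of 25% more in the higher group (the 25% rule) 9 and 7. Non-cycling cells had 2 higher and 1 lower, classes weighted to the same cycling share 2 higher, C3 cells 2 higher with a median of -0.090, and C4 cells 11 lower with a median of -0.13. For cycling over non-cycling cells in B16F10, totals that leave out mitochondrial and ribosomal protein genes gave 0 higher and 1 lower. Thinned cells gave 2 higher, Eif2s1 and the newly passing Eif2d. A 2-fold rule gave 0 higher in B16F10, and a 25% rule 12 higher and 5 lower. In B16F0 a 2-fold rule gave 0 higher and a 25% rule 6 higher and 2 lower. For Kdm5b high over low cells, a 25% rule gave 2 higher and 7 lower in B16F10 and 1 lower in B16F0. The fold rules move counts by construction; for the other settings the cause was not tested. Of the 7 members called between the lines, weighting to the same cycling share lost Eif4e, Eif4g1 and Eif3l. Eif4g1 was also lost with totals that leave out mitochondrial and ribosomal protein genes and with the mean of per-cell CPM, Eif4g1 and Eif3l both when the 5% of cells richest in UMIs were left out and with cells of at most 8% mitochondrial UMIs, Eif3l in cycling cells and without C4 cells, and Eif4g3 at a minimum of 50 CPM. Eif4g2 was called between the lines under every alternative but the 2-fold rule. With 1 library per line no replicate could be left out, and counting intervals leave out variation between cultures. No paired analysis was possible because each line has 1 library and the lines share only 1 replicate number.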
